A study of Mus musculus with 16 samples.

Results

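The 54 genes described here encode the machinery that stores, releases and recycles synaptic vesicles in the presynaptic terminal, and they were taken by symbol from the 17074 genes of a cerebellar RNA-Seq table, where all 54 were found. The rule names genes and uses no measured value, but the genes were chosen with earlier results of these data known. RNA-Seq was performed on poly(A) RNA from the cerebellum of female C57BL/6 mice at 2 months (young) and 18 months (aged), in control mice and in Acsl6-/- mice that lack long-chain acyl-CoA synthetase 6, an enzyme that enriches brain membranes in docosahexaenoic acid. There were 4 libraries in each of the 4 groups: young control, young Acsl6-/-, aged control and aged Acsl6-/-. The Acsl6-/- line was made by crossing floxed mice with a CMV-Cre line, which deletes the gene in the germline and therefore in all cells, and ageing was natural, on a chow diet free of docosahexaenoic acid. The labels number the libraries of a group but do not say that each came from its own mouse, so the p-values measure the spread between these libraries.

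As background, a vesicle is filled with transmitter by a transporter in its membrane, is held in a cluster by synapsins, and is docked at the active zone by a scaffold of Bassoon, Piccolo, RIM, ELKS and Munc13 proteins together with Rab3. Fusion is driven by the SNARE proteins *Snap25*, syntaxin and Vamp, is clamped and triggered by complexins and synaptotagmins, and is followed by disassembly of the SNARE complex and by endocytosis of the membrane. In the cerebellum most synapses are made by granule cells, which release glutamate from parallel fibers, while Purkinje cells and molecular layer interneurons release GABA. Whole tissue was sequenced, so that fewer cells of a type and less RNA per cell cannot be told apart in any value below.

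The depth was 16953548 to 27569428 reads in genes per library, and values are normalized counts, which are read counts divided by a size factor of the library. *Acsl6* itself was lower in every Acsl6-/- library than in every control library of the same age, at 2293 ± 36.1 against 6753 ± 309 normalized counts (mean ± SD, n = 4) at 2 months and 2178 ± 75.7 against 5969.9 ± 112 at 18 months (exact two-sided permutation test, p = 0.0286 at each age, the smallest that 4 against 4 libraries allow). Markers that define cerebellar tissue were abundant in all 16 libraries, with sums of 78328 to 119026 normalized counts for 7 granule cell genes and 136724 to 167519 for 7 Purkinje cell genes. The choroid plexus gene *Ttr* exceeded 5000 normalized counts in 5 libraries, namely aged Acsl6-/- 1, aged control 3 and 4, and young control 1 and 4, and ranged from 87.9 to 432 elsewhere. Aged control 3 also stood apart in *Gm42418*, which overlaps ribosomal RNA sequence, at 686717 normalized counts. Counts of genes called are given with and without these libraries. Of the 54 genes, 15 share exon bases with another gene of the table. No source used here states whether counting followed the strand or how reads in shared bases were assigned, so these counts may be too high or too low.

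For 3 of the strongest changes described below, the starting point is the DNA before the start sites. The 250 bases upstream of the annotated start are printed 5′ to 3′ on the strand of the gene (RefSeq, GRCm38.p6), in lower case, with capitals marking a GC box (GGGCGG, bound by the Sp1 family) or a TATA box (TATAAA) on either strand. They lie at chr4:120854549-120854798 (+) for *Rims3*, chr7:45163671-45163920 (+) for *Slc17a7* and chr7:75309263-75309512 (-) for *Sv2b*.
Rims3: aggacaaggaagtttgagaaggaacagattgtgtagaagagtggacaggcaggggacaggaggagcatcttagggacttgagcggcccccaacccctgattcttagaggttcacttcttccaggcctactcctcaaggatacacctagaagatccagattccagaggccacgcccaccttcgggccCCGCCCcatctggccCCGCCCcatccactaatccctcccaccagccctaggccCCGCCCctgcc
Slc17a7: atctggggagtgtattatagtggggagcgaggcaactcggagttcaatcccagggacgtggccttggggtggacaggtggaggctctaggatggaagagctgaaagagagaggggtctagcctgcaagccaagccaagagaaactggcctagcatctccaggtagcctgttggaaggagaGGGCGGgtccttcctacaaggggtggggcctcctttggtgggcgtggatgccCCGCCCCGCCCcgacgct
Sv2b: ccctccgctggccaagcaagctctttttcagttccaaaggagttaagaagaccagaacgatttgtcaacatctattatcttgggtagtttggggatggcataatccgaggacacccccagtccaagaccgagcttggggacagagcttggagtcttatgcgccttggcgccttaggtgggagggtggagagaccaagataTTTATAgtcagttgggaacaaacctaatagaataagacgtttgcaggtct
The promoters of *Rims3* and *Slc17a7* each hold 3 GC boxes, all in the 100 bases nearest the start, and a pair of those of *Slc17a7* overlap by 1 base. Some genes have several annotated starts in the table, and for the shares that follow a gene counts when any of its windows holds the motif. For 39 of the 42 genes with an entry a listed start lies within 1000 bases of the start of the GENCODE gene model, and for *Cplx2*, *Synj2* and *Syt11* it lies farther away, so that no window is printed for them. *Sv2b* is the only one of the 42 whose window holds the TATA box, which 14.3% of all 27025 genes in that table hold. Across the 42, 29 (69.0%) hold a GC box, against 35.4% of all genes. All genes here means every gene of the promoter table, not only those tested in the cerebellum. Of the 15 genes with an entry that were called lower with age in both genotypes, 9 hold a GC box. The cAMP response element TGACGTCA, bound by CREB, is in the windows of *Syn1* and *Sh3gl2*, 4.76% of the 42 against 1.77% of all genes. The E-box CACGTG is in those of *Napa*, *Nsf*, *Unc13b* and, at another start than the one printed, *Sv2b* (9.52% against 6.86%). The sterol regulatory element TCACNCCAC, bound by the SREBP factors of cholesterol synthesis, is in that of *Syt1* (2.38% against 1.22%), and the RE1 element, bound by the neuronal repressor REST, in that of *Syt2* (2.38% against 0.155%). A match is a description of the letters and no evidence that a factor binds there.

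The levels of the 54 genes spanned more than 3 orders of magnitude. Per kilobase of merged exons, the scale on which genes can be compared, *Snap25*, the plasma membrane SNARE, was the most abundant at 7595 normalized counts per kb over the 16 libraries, followed by the endocytic GTPase *Dnm1* at 5051, the complexins *Cplx2* and *Cplx1* at 4808 and 4423, the vesicle SNARE *Vamp2* at 3857 and *Rab3a* at 3191. *Snap25* alone made up 13.1% of the summed normalized counts of the 54 genes. Among relatives, *Sv2a* (2304 per kb) stood above *Sv2b* (613.5) and *Sv2c* (181), *Rims1* (896), *Rims3* (683) and *Rims4* (672) above *Rims2* (254), and the glutamate transporter *Slc17a7* (2042) and the GABA transporter *Slc32a1* (919.7) above *Slc17a6* (73.4). At the bottom were *Syn3*, *Stx1a*, *Unc13b* and *Doc2a*, at 21.1, 18.3, 17.7 and 3.64 per kb. *Doc2a* had between 2 and 23 reads in a library, so its fold changes are imprecise.

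With age in control mice the set shifted downward. At an adjusted p under 0.05 over all genes, 26 of the 54 (48.1%) were lower at 18 than at 2 months and 1 was higher, whereas over all 17042 genes tested 31.3% were called, 16% lower and 15.3% higher. Of the 54, 45 had a mean of at least 1000 normalized counts. Shares called here and below are set against all genes tested, not against genes of like abundance. The median log2 fold change of the 54 was -0.14 against 0.006 for all genes, and 45 of 54 were negative. The 4 aged libraries lay wholly below the 4 young ones for 24 of the genes and wholly above for 4, against 15.5% and 14.8% of all genes. Without the 5 libraries high in *Ttr*, which leaves 2 control libraries per age, 18 were lower and none was higher, and 16.5% of all genes were called. Of the 27 genes called, 12 were no longer called, and 3 others were. The 12 were *Syn1*, *Syn2*, *Syp*, *Sv2a*, *Sv2c*, *Syt1*, *Cplx1*, *Nsf*, *Napa*, *Amph* and *Sh3gl2*, with fold changes of -0.06 to -0.21 on the log2 scale, and *Rimbp2*, with 0.32. Under quantile normalization *Nsf*, *Rimbp2*, *Sh3gl2*, *Sv2a*, *Sv2c*, *Syp* and *Syt1* were no longer called in control mice (adjusted p = 0.0553 to 0.886).

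In Acsl6-/- mice 22 of the 54 (40.7%) were lower with age and 1 was higher, where 23.2% of all genes were called, 11.6% in each direction. The median log2 fold change was -0.14 against -0.0001 for all genes, and again 45 of 54 were negative. The aged libraries lay wholly below the young ones for 25 genes and wholly above for none, against 12.2% and 11.5% of all genes. Of the genes called lower, 18 were shared, 69.2% of those in control and 81.8% of those in Acsl6-/- mice. These 2 comparisons have no library in common, but they share the estimate of the spread, which came from 1 model of all libraries. Over all genes called lower the shared shares were 51.0% and 70.2%. A gene called in one genotype and not in the other is not shown to differ between them, since the interaction was called for none of the 54 (smallest adjusted p = 0.27). Without the libraries high in *Ttr*, 23 were lower and 1 was higher, where 21.6% of all genes were called, and *Syt4* was no longer called (log2 -0.11, adjusted p = 0.0519). Under quantile normalization *Amph*, *Rims2*, *Sh3gl2*, *Snap25*, *Syp*, *Syt4* and *Syt11* were no longer called in Acsl6-/- mice (adjusted p = 0.0502 to 0.26).

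**Figure D1:**
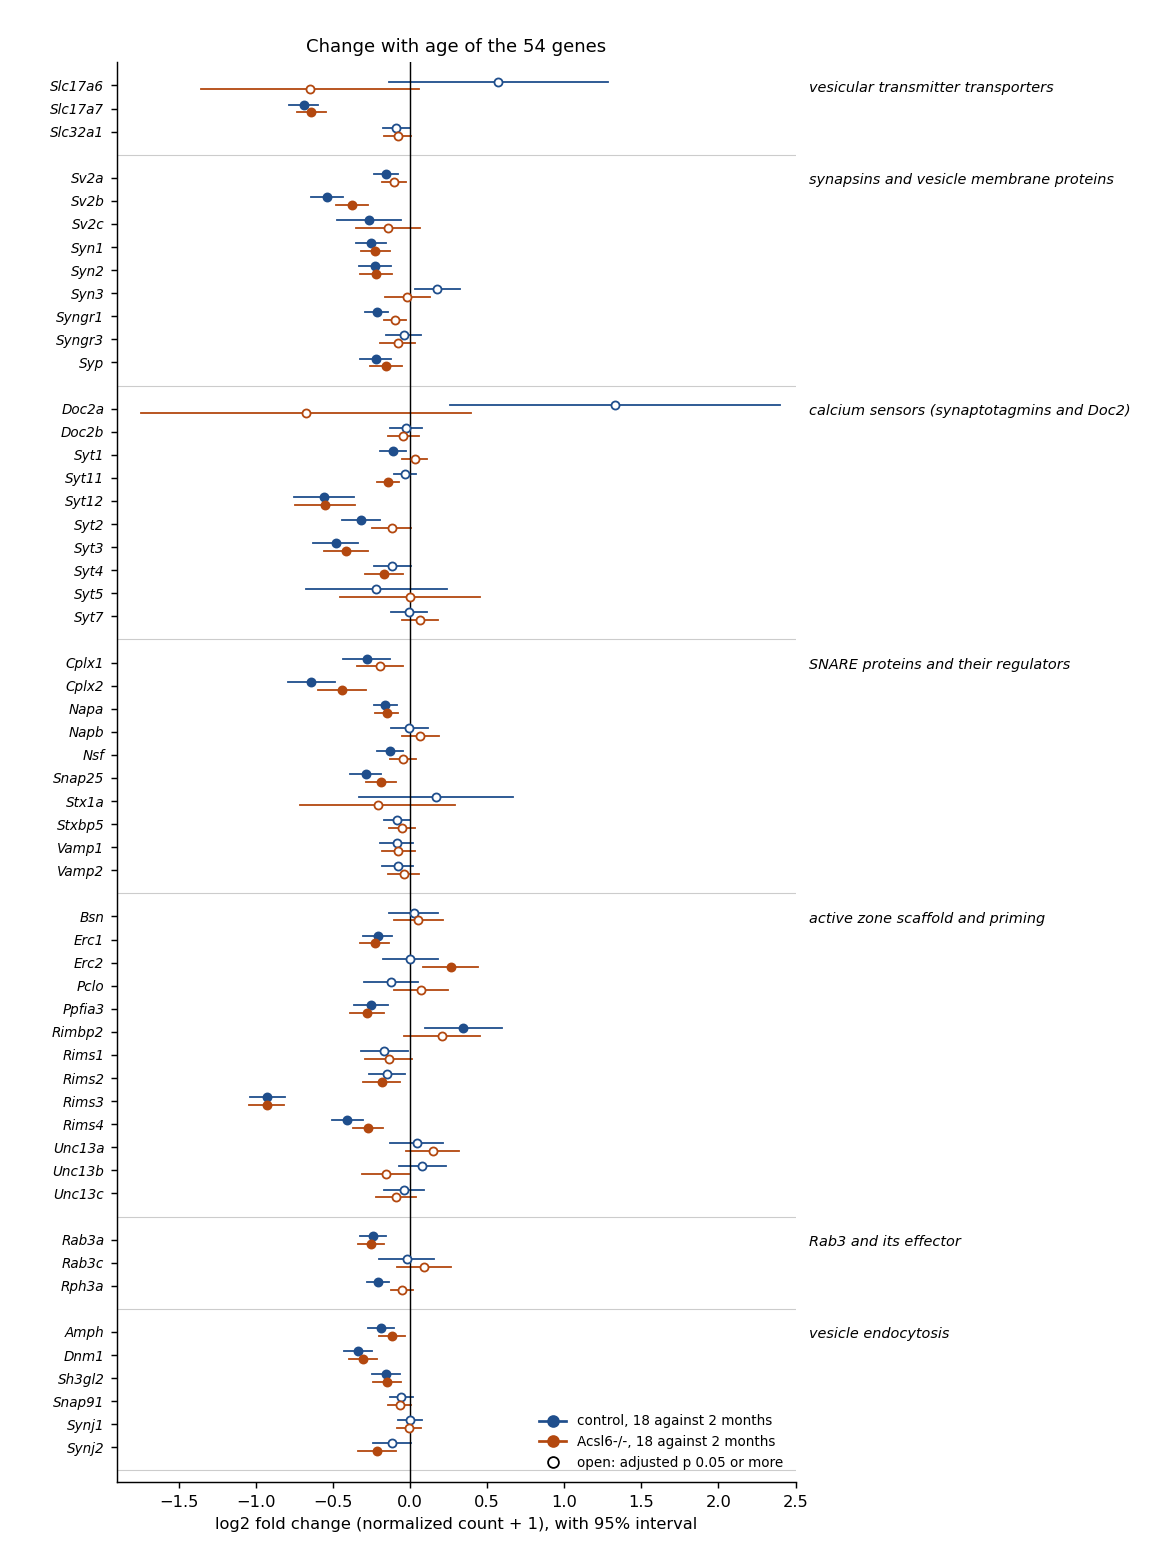
Log2 fold change with age (18 against 2 months, on the scale of normalized count + 1) of each of the 54 genes, grouped by role, in control mice (blue) and Acsl6-/- mice (orange). Points are limma estimates from 4 libraries per group, lines are 95% intervals, and filled points have an adjusted p under 0.05. *Rims3* stands farthest to the left in both genotypes, at -0.92 and -0.93, and most filled points lie left of 0.

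Among the vesicular transporters, which load transmitter into the vesicle, *Slc17a7* (VGLUT1, the glutamate transporter of parallel fibers) fell with age. It measured 14191, 13846, 13452 and 13536 normalized counts in young control libraries 1 to 4 and 8029, 8960.3, 8551 and 8568 in aged control libraries, and 13295, 12228, 13640.3 and 13866 in young Acsl6-/- and 8651, 8139, 8262 and 8981 in aged Acsl6-/- libraries. All 8 aged values lie below all 8 young ones, and the fold change was log2 -0.69, SE 0.04, adjusted p = 1.01e-08 in control and log2 -0.64, SE 0.04, adjusted p = 2.34e-08 in Acsl6-/- mice. *Slc32a1*, the vesicular transporter of GABA and glycine, ranged only from 2348 to 2779.7 over the 16 libraries and passed no test (log2 -0.09 and -0.08, adjusted p = 0.11 and 0.168). The count ratio of *Slc17a7* to *Slc32a1* was 4.87 to 5.23 in young control and 3.19 to 3.55 in aged control libraries, and 4.92 to 5.23 and 3.25 to 3.73 in Acsl6-/- libraries. *Slc17a6* (VGLUT2), the transporter of climbing fibers and of many brainstem and deep nuclear neurons, was low and scattered, from 111 to 636, with the lowest value in aged Acsl6-/- 2.

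The synapsins and vesicle membrane proteins included 7 of 9 genes that were lower with age in control mice and 4 of 9 in Acsl6-/- mice (77.8% and 44.4%). Over the 54 genes these shares were 48.1% and 40.7%, and over all genes 16% and 11.6%. No test compared the roles with each other. *Sv2b*, a glycoprotein that binds synaptotagmin, measured 6721, 5847, 5754 and 6199 in young control and 4119, 4171, 4388 and 4176 in aged control libraries, and 5603, 5901, 5693 and 5899.5 in young Acsl6-/- and 4529, 4057, 4508 and 4698 in aged Acsl6-/- libraries. Young and aged values do not overlap in either genotype, with a fold change of log2 -0.54, SE 0.05, adjusted p = 5.13e-07 and log2 -0.38, SE 0.05, adjusted p = 2.94e-05. Its relative *Sv2a*, present on nearly all vesicles, fell in control mice (log2 -0.16, SE 0.04, adjusted p = 0.00345) and had -0.10 in Acsl6-/- mice (adjusted p = 0.0528). The ratio of *Sv2b* to *Sv2a* was 0.513 to 0.594 in young control libraries and 0.388 to 0.435 in aged ones. *Syn1* and *Syn2*, which tether vesicles to each other and to actin, fell in both genotypes by 0.22 to 0.25 on the log2 scale, and *Syp* (synaptophysin) by 0.22 on the log2 scale in control and 0.16 on the log2 scale in Acsl6-/- mice, where the second call was lost without young Acsl6-/- 1 or 3 or aged Acsl6-/- 2 or 4 (adjusted p up to 0.0675). *Syngr1* (synaptogyrin 1) fell in control mice (log2 -0.22, SE 0.03, adjusted p = 0.000141) and missed the threshold in Acsl6-/- mice (-0.10, adjusted p = 0.053), while the difference between the genotypes was itself not significant (interaction adjusted p = 0.42). *Sv2c* was lower in control mice by 0.26 on the log2 scale (adjusted p = 0.0484), which failed when any one of 10 libraries was left out (young control 1 to 3, aged control 1 to 4, young Acsl6-/- 1 or 3, or aged Acsl6-/- 3, adjusted p up to 0.153). *Syn3* and *Syngr3* passed no test with age.

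Of the calcium sensors, 4 of 10 (40%) were lower with age in each genotype, against 16% of all genes in control and 11.6% in Acsl6-/- mice. Among those called, *Syt3* and *Syt12* had the largest fold changes. *Syt3*, a high-affinity sensor, measured 1238, 1244, 1372 and 1244 in young control and 839, 935, 897 and 979 in aged control libraries, and 1282, 1214, 1105 and 1039 in young Acsl6-/- and 862, 801, 962 and 849 in aged Acsl6-/- libraries. No aged value reaches the lowest young one, and the fold change was log2 -0.48, SE 0.07, adjusted p = 4.63e-05 in control and log2 -0.42, SE 0.07, adjusted p = 0.000268 in Acsl6-/- mice. *Syt12*, which does not bind calcium, fell by 32.5% and 31.6% (log2 -0.56, SE 0.09, adjusted p = 0.000184 and log2 -0.55, SE 0.09, adjusted p = 0.000308). *Syt2*, the fast sensor of many inhibitory and brainstem-type synapses, fell in control mice, from 12151 ± 976 to 9726 ± 474 (log2 -0.32, SE 0.06, adjusted p = 0.000551), and had -0.12 in Acsl6-/- mice (adjusted p = 0.162). *Syt1*, the sensor of synchronous release, was lower in control mice by 0.11 on the log2 scale (adjusted p = 0.0446). This did not hold when any one of 8 libraries was left out (young control 1 to 4, aged control 1, 2 or 4, or young Acsl6-/- 3, adjusted p up to 0.105), and the value turned to 0.0086 (adjusted p = 0.886) under quantile normalization. *Syt4* and *Syt11*, whose first C2 domain does not bind calcium as that of *Syt1* does, were lower in Acsl6-/- mice, *Syt4* by 0.17 on the log2 scale (adjusted p = 0.0416, and up to 0.145 without any one of young Acsl6-/- 1 to 4, aged Acsl6-/- 1 or 3, or young control 1) and *Syt11* by 0.14 on the log2 scale (adjusted p = 0.00535, but 0.0857 under quantile normalization). *Syt7*, the slow sensor, was at 8832 to 11448 in all 16 libraries and passed no test, and neither did *Syt5*, *Doc2a* or *Doc2b*. *Doc2a* had a mean of 4.41 in young and 12.4 normalized counts in aged control libraries, wholly above the young ones (log2 1.33, SE 0.51, adjusted p = 0.0544).

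Among the SNARE proteins and their regulators, 5 of 10 were lower in control and 3 of 10 in Acsl6-/- mice (50% and 30%, against 16% and 11.6% of all genes). *Cplx2*, the complexin of many excitatory neurons, measured 32524, 29896, 30227 and 24719 in young control and 18914, 20427, 17609 and 18127 in aged control libraries, and 26892, 24744, 28137 and 27686 in young Acsl6-/- and 21482, 18062, 20641 and 19019.7 in aged Acsl6-/- libraries. The aged libraries are all below the young ones, with a fold change of log2 -0.64, SE 0.07, adjusted p = 5.36e-06 in control and log2 -0.44, SE 0.07, adjusted p = 0.000281 in Acsl6-/- mice. *Cplx1* fell in control mice (log2 -0.28, SE 0.07, adjusted p = 0.00662) and had -0.20 in Acsl6-/- mice (adjusted p = 0.0587). *Snap25* measured 60414, 57998, 62169 and 54371 in young control and 49199, 48058, 47938 and 46927 in aged control libraries, and so fell by 18.2% (log2 -0.29, SE 0.05, adjusted p = 0.00015). In Acsl6-/- mice it measured 54687, 49499.7, 52734 and 55039.8 in young and 44392, 48363, 47505 and 45994 in aged libraries, and so fell by 12.1% (log2 -0.19, SE 0.05, adjusted p = 0.00697, but 0.129 under quantile normalization). The young and aged values of *Snap25* do not overlap in either genotype, and this was the largest change in absolute counts of any of the 54 genes in control mice. *Napa* (alpha-SNAP) fell in both genotypes by 0.15 to 0.16 on the log2 scale, and its ATPase partner *Nsf* fell in control mice (log2 -0.13, SE 0.04, adjusted p = 0.021), where the call was lost without young control 1, aged control 1 or aged control 3 (adjusted p up to 0.0731). *Vamp1*, *Vamp2*, *Napb* and *Stxbp5* (tomosyn) passed no test, with fold changes between -0.09 and 0.07, and *Stx1a* was at only 32.9 to 69.5 normalized counts.

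The active zone held both the largest fall and both of the rises. *Rims3*, a short RIM protein that lacks the Rab3 and Munc13 binding domains and modulates calcium channels, measured 7317, 7542, 7622 and 6793 in young control libraries and 3510.2, 3863, 3995 and 4057 in aged ones, and 7083, 6994, 6791 and 6894 in young Acsl6-/- and 3534, 3478, 3479 and 4108 in aged Acsl6-/- libraries. Aged values were far below every young one, and the mean fell by 47.3% and by 47.4% (log2 -0.92, SE 0.05, adjusted p = 8.21e-09 in control and log2 -0.93, SE 0.05, adjusted p = 5.94e-09 in Acsl6-/- mice). *Rims4*, of the same short type, fell by 24.4% and 17.3% (log2 -0.41, SE 0.05, adjusted p = 7.15e-06 and log2 -0.27, SE 0.05, adjusted p = 0.000461). Of the long RIM proteins, which tether Rab3 and calcium channels, *Rims2* was lower in Acsl6-/- mice (log2 -0.18, SE 0.06, adjusted p = 0.0232, up to 0.0674 without young Acsl6-/- 2 or 3 or aged Acsl6-/- 1 or 2) and *Rims1* passed no test (-0.17 and -0.14). The count ratio of *Rims3* to *Rims1* was 1.01 to 1.07 in young control and 0.582 to 0.687 in aged control libraries, and 0.885 to 1.17 and 0.515 to 0.698 in Acsl6-/- libraries. *Erc1* (ELKS1) and the liprin *Ppfia3* fell in both genotypes by 0.21 to 0.28 on the log2 scale. *Rimbp2*, which links RIM to calcium channels, was higher with age in control mice (log2 0.35, SE 0.12, adjusted p = 0.033), which failed without young control 1 or 3 or aged control 2, 3 or 4 (adjusted p up to 0.0911). *Erc2*, a second ELKS protein, was higher in Acsl6-/- mice (log2 0.26, SE 0.08, adjusted p = 0.03), where young and aged values overlap, and the call was lost without young Acsl6-/- 3 or 4 or aged Acsl6-/- 1, 2 or 4 (adjusted p up to 0.0947). The giant scaffolds *Bsn* and *Pclo* and the priming factors *Unc13a*, *Unc13b* and *Unc13c* passed no test in either genotype.

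*Rab3a*, the GTPase of the docked vesicle, fell in both genotypes, from 7812 ± 123 to 6619 ± 363 in control (log2 -0.24, SE 0.04, adjusted p = 0.000164) and from 7601 ± 277 to 6377 ± 184 in Acsl6-/- mice (log2 -0.25, SE 0.04, adjusted p = 0.000154). *Rab3c* had -0.02 and 0.09 and passed no test. *Rph3a* (rabphilin), a Rab3 effector, fell in control mice (log2 -0.21, SE 0.03, adjusted p = 0.000156) and had -0.05 in Acsl6-/- mice (adjusted p = 0.283). Its interaction, 0.15 ± 0.05 (SE) on the log2 scale, had the smallest p of the 54 and did not pass (adjusted p = 0.27).

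Of the 6 endocytic genes, 3 were lower in control and 4 in Acsl6-/- mice (50% and 66.7%, against 16% and 11.6% of all genes). *Dnm1* (dynamin 1), the GTPase that pinches off the vesicle, measured 30630.5, 30764, 29965 and 29812 in young control and 23968, 25866, 22264 and 23784 in aged control libraries, and 28864, 28053, 28524 and 28995 in young Acsl6-/- and 23720.0, 21506, 23916 and 23564 in aged Acsl6-/- libraries. The ages are separated in both genotypes, with a fold change of log2 -0.34, SE 0.04, adjusted p = 1.69e-05 in control and log2 -0.30, SE 0.04, adjusted p = 6.87e-05 in Acsl6-/- mice. *Amph* and *Sh3gl2* (endophilin A1), which bend the membrane and recruit dynamin and synaptojanin, fell in both genotypes by 0.12 to 0.19 on the log2 scale. In Acsl6-/- mice the call of *Amph* was lost without young Acsl6-/- 1, 3 or 4 or aged Acsl6-/- 2 or 4 (adjusted p up to 0.105), and that of *Sh3gl2* without young Acsl6-/- 3 or aged Acsl6-/- 1 (adjusted p up to 0.0524). *Synj1*, the main synaptojanin of the terminal, was at 6053 to 6673 in the 16 libraries (-0.0012, 95% interval -0.08 to 0.07, in control mice), and the clathrin adaptor *Snap91* (AP180) passed no test.

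**Figure D2:**
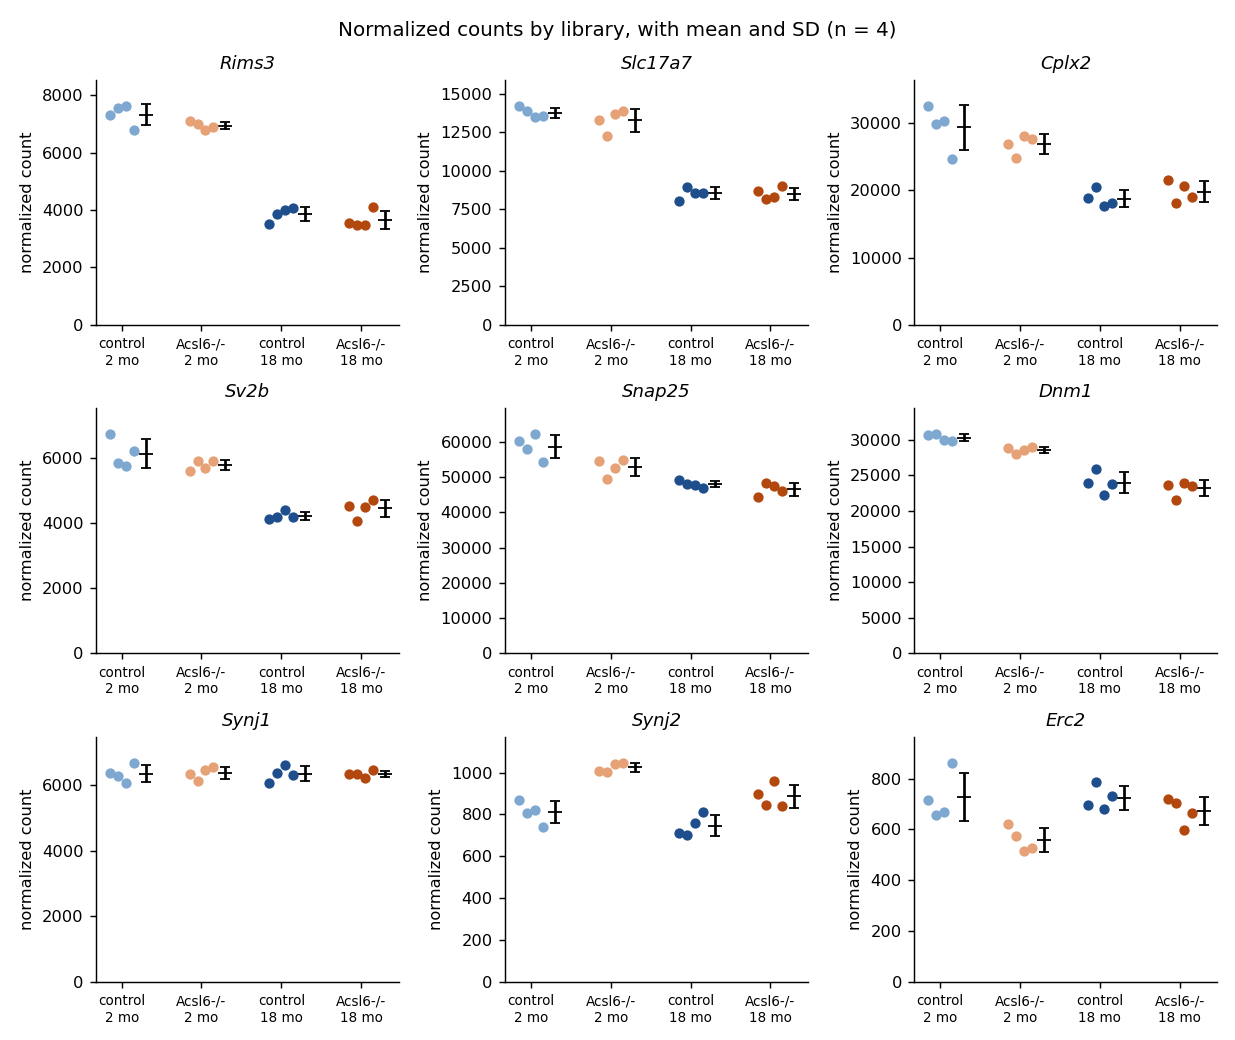
Normalized counts of 9 of the genes in each library (points) with the mean and SD of the 4 libraries of each group (black bars), on axes that start at 0. In *Rims3*, *Slc17a7*, *Cplx2*, *Sv2b*, *Snap25* and *Dnm1* every aged library of a genotype lies below its young libraries, *Synj1* stays between 6053 and 6673, and *Synj2* is higher in the Acsl6-/- than in the control libraries of each age.

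The ratios of 13 pairs of related genes were compared between ages within each genotype, 26 comparisons in all, on pairs chosen after the values were seen. In 12 of the 26 the young and aged ratios did not overlap, 5 in control and 7 in Acsl6-/- mice, but the smallest p that an exact two-sided permutation test of 4 against 4 libraries can give is 0.0286, which adjusts to 0.062 over the 26. No pair therefore passed, *Rims3* to *Rims1* and *Slc17a7* to *Slc32a1* included. Ratios of other gene pairs were not computed, so the 12 cannot be set against a share over all genes.

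Of 58 further genes of vesicle release and recycling, 15 were lower and 9 higher with age in control mice (25.9% and 15.5%, against 16% and 15.3% of all genes). In Acsl6-/- mice 18 were lower and 4 higher (31% and 6.9%, against 11.6% of all genes in each direction). The share of rises was thus near that of all genes in control mice and below it in Acsl6-/- mice. The median log2 fold changes were -0.06 and -0.03. *Ppfia4*, a liprin of the active zone, fell from 10376 ± 108 to 8311 ± 208 in control mice (log2 -0.32, SE 0.03, adjusted p = 2.32e-06), and *Syt9*, a calcium sensor, from 1526 ± 135 to 1104 ± 31.1 (log2 -0.46, SE 0.07, adjusted p = 5.91e-05). In Acsl6-/- mice *Syt9* fell by 0.49 on the log2 scale, *Sh3gl3*, an endophilin, by 0.93 on the log2 scale and the scaffold *Cask* by 0.26 on the log2 scale. The genes that rose included the endocytic scaffolds *Itsn2* (0.43 and 0.31) and *Itsn1* (0.13 and 0.16), the dynamin *Dnm3* (0.23 and 0.25) and the tomosyn *Stxbp5l* (0.20 and 0.41), in control and Acsl6-/- mice respectively, all called in both.

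Markers of granule cells and oligodendrocytes moved with these falls. The summed level of the granule cell markers was 99396 to 119026 normalized counts in young and 78328 to 84424 in aged control libraries, and 105258 to 112309 and 80976 to 98000 in Acsl6-/- libraries. Of the 7 markers, 6 were lower with age in control and 7 in Acsl6-/- mice, with medians of -0.47 and -0.33, and of 7 oligodendrocyte markers 2 were lower in control and 7 in Acsl6-/- mice, with medians of -0.24 and -0.59. The oligodendrocyte sum was 92593 to 106495 in young and 72477 to 110641 in aged control libraries, which overlap, and 102953 to 130588 in young and 73760 to 93786 in aged Acsl6-/- libraries, which do not. Of 7 Purkinje cell markers none was lower in either genotype, and 7 of 7 microglial markers were higher in both. The sum of the 54 genes was 416907 to 438278 in young and 356140 to 383369 in aged control libraries, and 392064 to 421337 and 365174 to 373885 in Acsl6-/- libraries. This was 2.03% to 2.09% of all normalized counts in young control and 1.69% to 1.88% in aged control libraries, lowest in aged control 3, and 1.93% to 2.02% and 1.81% to 1.84% in Acsl6-/- libraries. In the control libraries that are not high in *Ttr*, 2 at each age, the sum of the 54 genes was 431146 to 431826 in young and 363461 to 383369 in aged mice, and that of the granule cell markers 113562 to 115716 and 78328 to 82207. The part of the granule cell and oligodendrocyte changes in the falls of the 54 genes was not tested.

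**Figure D3:**
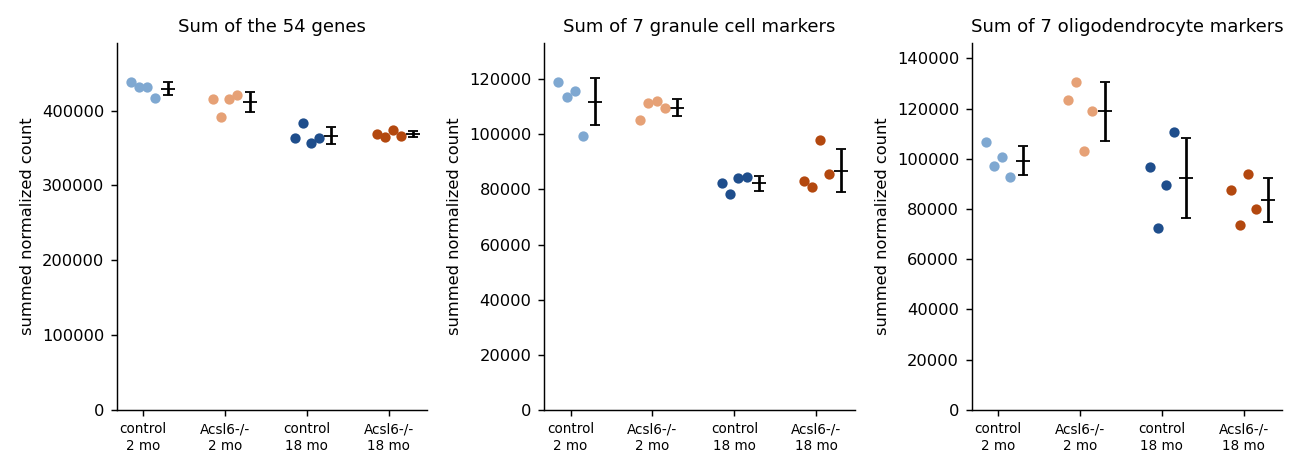
Summed normalized counts per library (points) with mean and SD of 4 libraries (black bars) for the 54 genes, for 7 granule cell markers and for 7 oligodendrocyte markers. The sums of the 54 genes and of the granule cell markers are lower in every aged library than in every young library of the same genotype, and the oligodendrocyte sum has its highest group mean in young Acsl6-/- libraries, at 102953 to 130588.

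Whether loss of Acsl6 changed the same genes was asked at each age. At 2 months 1 of the 54, *Synj2*, was higher in Acsl6-/- than in control mice and none was lower, where 0.211% of all genes were called, 0.135% higher and 0.0763% lower. At an unadjusted p under 0.05 there were 3 genes higher and 6 lower (5.56% and 11.1%), against 6.04% and 6.09% of all genes. The Acsl6-/- libraries lay wholly above the control libraries for 2 of the 54 and wholly below for 5, against 3.29% and 3.36% of all genes. *Synj2*, a phosphoinositide phosphatase of endocytosis, measured 1009, 1005, 1044 and 1047 in young Acsl6-/- libraries and 869.5, 808, 822 and 741 in young control libraries. All 4 Acsl6-/- values lie above all 4 control values, a rise of 26.7% (log2 0.34, SE 0.06, adjusted p = 0.0159), but the adjusted p rose to 0.0619 when young Acsl6-/- 3 was left out and past the threshold also without the libraries high in *Ttr* (adjusted p = 0.088, fold change 0.33). At 18 months *Synj2* measured 900.3, 845, 959.8 and 839.9 against 712, 703, 761 and 813, again without overlap, and missed the threshold (log2 0.25, SE 0.06, adjusted p = 0.0885). It fell with age in Acsl6-/- mice (log2 -0.21, SE 0.06, adjusted p = 0.0126), and the genotype effects at the 2 ages were not shown to differ (interaction adjusted p = 0.73). Its exons share bases with those of *Serac1*.

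The 4 genes next in order of p at 2 months did not pass. *Erc2* measured 619.7, 574, 515 and 526 against 717, 655, 668 and 861 in control, without overlap, and had log2 -0.37, SE 0.08, adjusted p = 0.0759. *Snap25* had a mean change of -9.78% (log2 -0.15, SE 0.05, adjusted p = 0.196), with values that overlap at 54371 in young control 4 and 55040 in young Acsl6-/- 4. *Nsf* had -7.65% (log2 -0.12, SE 0.04, adjusted p = 0.264), and *Doc2a*, at 6.17 to 24.1 against 1.93 to 6.15 normalized counts, had log2 1.45, SE 0.51, adjusted p = 0.256. With DESeq2 on the recovered reads 3 genes were called at 2 months: *Synj2* higher, and *Erc2* (adjusted p = 0.0068) and *Snap25* (adjusted p = 0.0496) lower. In the Acsl6-/- libraries the oligodendrocyte markers were above control in 7 of 7 genes, with a median of 0.25 and none called and sums of 102953 to 130588 against 92593 to 106495 in control. Of 6 molecular layer interneuron markers 5 were below control, with a median of -0.21, sums of 12844 to 15125 against 14924 to 15286 and none called. Of 6 endothelial and mural cell markers 5 were below control (median -0.21, none called). Granule cell markers were above control in 4 of 7 genes and Purkinje cell markers in 5 of 7 (medians 0.075 and 0.05, none called). At an unadjusted p under 0.05, 5 oligodendrocyte and 3 microglial markers were higher, and 4 interneuron and 3 endothelial and mural markers were lower. The 7 microglial markers were all above control (median 0.22, none called), and the 6 choroid plexus markers were all below control (median -0.94, none called). The choroid plexus difference came from young control 1 and 4, which are high in *Ttr*, with sums of 6841 and 9468. Young control 2 and 3 had sums of 1004 and 666, and the young Acsl6-/- libraries 892 to 1149. Of 7 Bergmann glia and astrocyte markers 6 were above control, with a median of 0.13. Only *Gfap* among them was called higher (log2 0.50, adjusted p = 0.0475), and *Sox9* was below control, with means of 614 against 784. In the same comparison 34 of the 54 vesicle genes had a negative fold change, with a median of -0.03 against -0.0016 for all genes. The part of these marker changes in the values of the vesicle genes was not tested.

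At 18 months none of the 54 was called, where 0.241% of all genes were, 0.0821% higher and 0.158% lower. The Acsl6-/- libraries lay wholly above control for 4 of the 54 and wholly below for 1, against 2.89% and 2.28% of all genes. Without the libraries high in *Ttr* none was called either, against 0.136% of all genes. At an unadjusted p under 0.05 there were 2 genes higher and 2 lower (3.70% each, against 4.61% and 4.54% of all genes), edgeR called none, and DESeq2 called 2, *Synj2* (adjusted p = 0.016) and *Syt1* (adjusted p = 0.0495), both higher. *Syt1* measured 11749, 12529, 11407 and 12362 in aged Acsl6-/- and 10750.4, 10601, 11266 and 11002 in aged control libraries, which do not overlap (log2 0.14, SE 0.04, adjusted p = 0.201). Next came *Syt11* (log2 -0.09, SE 0.03, adjusted p = 0.438), *Slc17a6* (log2 -0.76, SE 0.34, adjusted p = 0.513) and *Pclo* (log2 0.18, SE 0.08, adjusted p = 0.547). For *Sv2b* the aged Acsl6-/- and aged control libraries measured 4448 ± 274 and 4213 ± 119, and for *Snap25* 46564 ± 1748 and 48031 ± 929, with values that overlap in both genes (log2 0.08, SE 0.05, adjusted p = 0.694 and log2 -0.05, SE 0.05, adjusted p = 0.836).

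The precision of the genotype comparisons can be given as an interval. The 95% interval of the fold change lay within a fold of 1.25 in either direction for 46 of the 54 genes at 2 months and 47 at 18 months, with a median standard error of 0.05 on the log2 scale. The intervals are not adjusted for the number of genes. The age by genotype interaction was called for none of the 54, against 0.0176% of all genes, with 6 genes higher and 4 lower at an unadjusted p under 0.05 (11.1% and 7.41%, against 4.79% and 5.23% of all genes) and none called by DESeq2 or edgeR. The age changes of *Rims3* differed between genotypes by -0.01 ± 0.08 (SE), those of *Slc17a7* by 0.05 ± 0.06 (SE) and those of *Cplx2* by 0.20 ± 0.10 (SE) (log2, Acsl6-/- minus control).

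**Figure D4:**
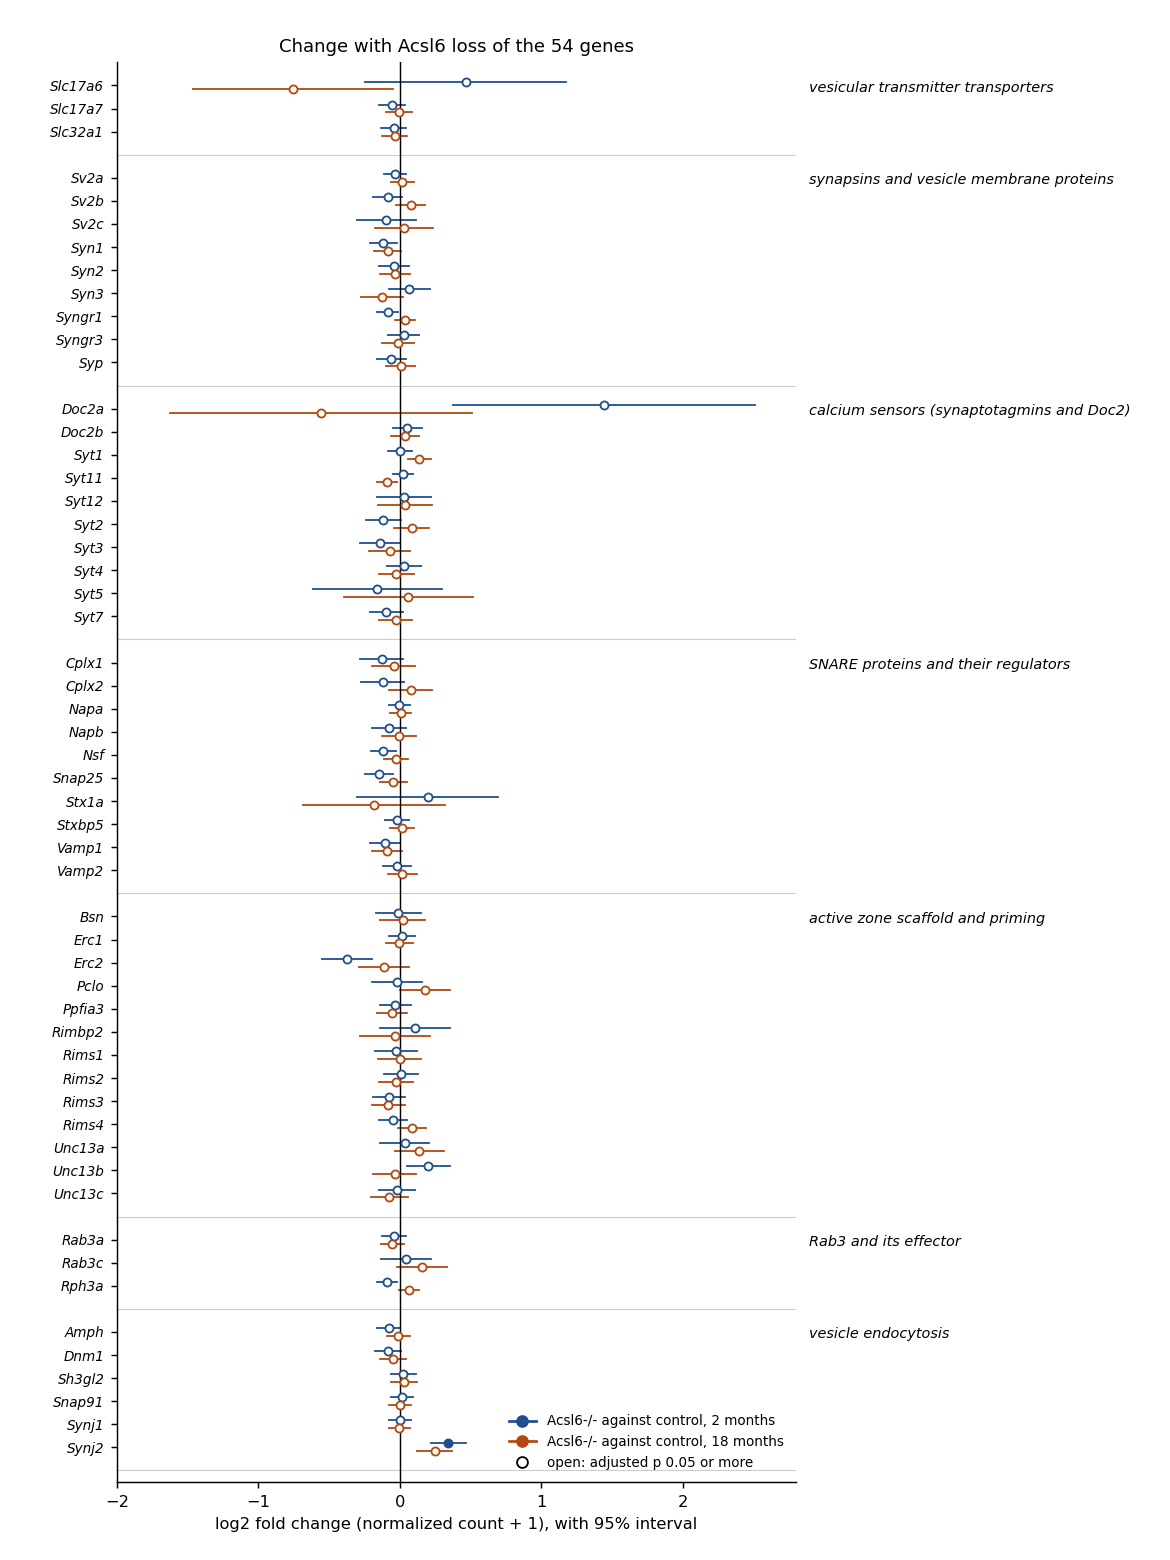
Log2 fold change of Acsl6-/- against control mice at 2 months (blue) and 18 months (orange) for each of the 54 genes, grouped by role, with 95% intervals from limma and filled points for an adjusted p under 0.05. Most points lie close to 0, the only filled one is *Synj2* at 2 months (0.34), and the widest intervals belong to *Doc2a* and *Slc17a6*.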

How the data were processed

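The deposited values are a signal per gene in 16 libraries: the authors trimmed reads (Trimmomatic 0.36), aligned them to GRCm38 (STAR 2.5.2b), counted unique hits in exons with featureCounts and divided each library by a size factor. Each value was a whole number of reads within 0.001 reads, so reads were recovered in all 16 libraries. In aged control 3 and 4 no gene had 1 read, and the step was read from gaps between values. Symbols matched 17020 of 17074 genes.

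Log2(normalized count + 1) of 17042 genes with a mean of at least 10 was fitted with limma 3.58.1 (R 4.3.3) in 1 model of 4 groups with a variance trend, two-sided, with Benjamini-Hochberg adjustment over all genes and a threshold of 0.05. In simulated counts, changes planted at a fold of 1.25 or more had a median fold change near the planted one. That median does not say how many of the planted changes were called. Smaller changes were not planted, although the median change of the genes called lower with age was smaller, at log2 -0.25 in control and -0.23 in Acsl6-/- mice. Alternatives were a pseudocount of 5, no filter, a mean of at least 50, array weights, quantile and TMM scaling, a replicate block, fits of the compared groups alone, leaving out each library, DESeq2 1.42.0 and edgeR 4.0.16 on the reads. Leaving out the libraries high in *Ttr* was chosen after seeing the data.

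The genes, roles, markers and further pathway genes were chosen with earlier results of these data known. All 54 genes may be named. Full statistics go to up to 10 per direction and comparison with the smallest p among those called, to the 5 smallest p of each genotype comparison, and, of the further pathway genes, values to up to 4 per direction, some of which are not reported here. Genes outside the promoter table are named only. Levels per kb use merged exons of GENCODE vM21.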

Additional observations from a re-analysis of the deposited data

Results flagged for a closer look

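In each group of 4 libraries the highest and the lowest value of each of the 54 genes was compared with the nearest other library. Of the 216 groups, 11 had a library whose gap to the nearest one exceeded 0.829 of the range of the group. Chance alone is expected to give about 5% of groups, which is about as many as were found. The values below are therefore a description only.

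Of these 11, 4 were in aged Acsl6-/- libraries 1 and 4. *Rims3* was 4108 in aged Acsl6-/- 4 against 3478 to 3534 in the other libraries of the group, still below every young library, and *Rims4* was 2893 there against 3063 to 3092. In aged Acsl6-/- 1 *Rimbp2* was 364 against 250.4 to 266 and *Rab3a* was 6652 against 6268 to 6304. *Dnm1* was 21506 in aged Acsl6-/- 2 against 23564 to 23916.

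In young Acsl6-/- 1 both *Cplx1*, at 11438 against 9469 to 9707, and *Rph3a*, at 10559 against 9851 to 9959, stood above the group. Among control libraries *Syt2* was 10692 in young control 4 against 12576 to 12735, *Syt3* was 1372 in young control 3 against 1238 to 1244, *Sv2c* was 2172 in young control 1 against 1822 to 1870, and *Syn3* was 269 in aged control 2 against 280.1 to 281.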

How the results depend on the processing

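The number of genes called with age stayed within 1.5 times under all alternatives run. It was 23 to 30 in control and 17 to 26 in Acsl6-/- mice when single libraries were left out, lowest in Acsl6-/- mice without young Acsl6-/- 3, and 20 and 17 under quantile normalization. In both genotypes 15 of the genes called with age, of 27 and 23, passed under every alternative. Under quantile normalization the fold change of *Syt1* with age in control mice was 0.0086, against -0.11, and the cause was not tested. At 2 months the genotype count was 0 to 2 when single libraries were left out (0 without young Acsl6-/- 3, 2 without young Acsl6-/- 1), 3 with DESeq2 and 0 without the libraries high in *Ttr*, which leaves fewer samples. At 18 months it was 0 in every leave-one-out fit and 2 with DESeq2. The interaction count was 0 throughout, and the fit of only the groups compared gives it no value of its own. With the replicate number as a block the counts were 1 and 0 for genotype, 29 and 22 for age and 0 for the interaction. The deviations of libraries with the same number correlated at -0.2 to 0.116, and not every library correlated best with its own. The labels do not say whether equal numbers share a litter or a day, and these correlations cannot decide it. The largest shift of the median of all genes under any setting was -0.0215 on the log2 scale. Standard errors of the fold change were 0.22 or more for *Doc2a*, *Stx1a*, *Syt5* and *Slc17a6*, and *Doc2a* had 2 to 23 reads in a library.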
